A study of Mus musculus with 6 samples.

Results

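The nuclear genes for the respiratory chain and ATP synthase were compared between 2 cohorts of murine *Hoxa9* leukemia. The members were taken by symbol, as every gene whose name begins with *Nduf*, *Uqcr*, *Atp5* or *Cox4* to *Cox8*, together with *Sdha*, *Sdhb*, *Sdhc* and *Sdhd*. Symbols that contain -ps were left out. This gave 92 genes of the 41128 in the expression table, all of them protein-coding: 7 for the core and 29 for the accessory subunits of complex I, 8 for its assembly, 4 for complex II, 8 for complex III, 20 for complex IV and 16 for complex V. The rule reads symbols only, but the family was picked with earlier results of these data known.

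RNA came from AML cells of C57BL/6 background taken from the BM of 6 mice, with 1 library per mouse. Donor KIT+ BM cells, CD45.1+, carried a retrovirus for FLAG-tagged *Hoxa9* in both cohorts. In the *Hoxa9*/*IRX3* cohort (mice 3.2, 3.3 and 3.5) they also carried a retrovirus for MYC-tagged human *IRX3*, a homeodomain transcription factor gene, and in the *Hoxa9*/MTV cohort (mice 1.1, 1.2 and 1.4) the empty vector MTV. The doubly transduced cells were selected with drugs and transplanted with CD45.2+ support marrow into irradiated female CD45.2+ recipients, aged 6 to 12 weeks at transplantation, and the frozen leukemic marrow was thawed and sorted for viable donor-derived KIT+Gr1+ cells. The authors report a later onset of AML in *Hoxa9*/*IRX3* than in *Hoxa9*/MTV recipients. The age of these 6 mice at collection is not given, and its part in the results was not tested. Each mouse is a separate leukemia, retroviral expression is not limited to a cell type, and the mouse numbers pair no animals across cohorts.

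The read number by which the RPKM of each library were scaled was between 7979246 and 9803621, as recovered from the steps between low values. Reads summed over all genes came to 104% to 105% of it. The range of reads per sample that the authors report after filtering is slightly higher, and their input reads were more. The deposited unit was RPKM, read numbers scaled to the length of the whole gene span and to the mapped reads of the library. *Irx3* of the mouse had no read in the 3 *Hoxa9*/MTV libraries. Mice 3.2, 3.3 and 3.5 had 15.1, 0.421 and 0.148 RPKM of it, a partial check of the label because the transduced cDNA is human. *Hoxa9* had 340, 363 and 174 RPKM in the *Hoxa9*/MTV and 242, 154 and 221 RPKM in the *Hoxa9*/*IRX3* leukemias. Of the lists of cell type markers, summed RPKM ran from 1482 to 2174 in *Hoxa9*/MTV and from 1093 to 3333 in *Hoxa9*/*IRX3* for 8 neutrophil genes, from 452 to 512 and from 472 to 862 for 7 monocyte and macrophage genes, from 1544 to 2292 and from 4151 to 4933 for 8 genes of the sorted myeloid cells (mostly *Elane*, at means of 794 and 2964, *Mpo* and *Ly6c2*, while *Kit* was at means of 2.75 and 2.16 and *Itgam* at 3.47 and 2.98), and from 38.0 to 61.9 and from 1.87 to 6.98 for 6 B cell genes, of which *Pax5* and *Ms4a1* were at 0 throughout. The 8 erythroid and 6 T and NK genes summed to at most 0.303 and 0.0549 RPKM in any mouse, the 5 megakaryocyte genes to at most 12.8 and the 6 stromal genes to at most 1.83. The part of these differences in the results for the respiratory chain was not tested.

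The respiratory chain sits in the inner mitochondrial membrane. Complex I (NADH dehydrogenase) and complex II (succinate dehydrogenase) pass electrons to ubiquinone, complex III passes them on to cytochrome c, complex IV (cytochrome c oxidase) passes them to oxygen, and complex V (ATP synthase) makes ATP with the proton gradient that complexes I, III and IV build. A few of their subunits are made from mitochondrial DNA and the rest from nuclear genes, and several nuclear subunits of complex IV exist as a broadly expressed form and a form typical of muscle, lung or testis. Leukemic stem and progenitor cells are known to rely on oxidative phosphorylation, which gives the family its interest in AML.

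The promoters of members shared sequence features that the choice by symbol did not use. RefSeq promoters (250 bases before to 50 after the start) were matched for 76 of the 92 members. Their median observed over expected CpG ratio was 0.831, compared with 0.389 over the promoters of 27025 genes. The letters GCATGCGC, which nuclear respiratory factor 1 (NRF1) binds, stood on either strand in 12 of 76 members (15.8%) and in 3.05% of all genes. CCGGAAG, the ETS-type letters that GABP binds, stood in 17 of 76 (22.4%) and in 9.93% of all, and AAGATGGCG, the letters of YY1, in 8 of 76 (10.5%) and in 1.64% of all. At least 1 of the 3 was found in 31 of 76 members (40.8%) and in 13.6% of all genes, and the 3 motifs do not contain each other. The match is of letters and shows no binding. The 27025 genes were not limited to protein-coding or tested genes, and each of the 3 motifs holds a CG. Whether tested genes in general share these features was not tested.

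Some of these promoters are shown because the results turn on their genes: *Ndufaf3* was the only member past the threshold, *Uqcr11* came next, and *Cox8a* and *Cox8b* are an expressed and a silent form of 1 subunit. Capitals mark the letters of the 3 motifs or their reverse complement, and each sequence is read 5′ to 3′ along the gene.
*Ndufaf3* (GRCm38.p6, chr9:108567387-108567686, minus strand): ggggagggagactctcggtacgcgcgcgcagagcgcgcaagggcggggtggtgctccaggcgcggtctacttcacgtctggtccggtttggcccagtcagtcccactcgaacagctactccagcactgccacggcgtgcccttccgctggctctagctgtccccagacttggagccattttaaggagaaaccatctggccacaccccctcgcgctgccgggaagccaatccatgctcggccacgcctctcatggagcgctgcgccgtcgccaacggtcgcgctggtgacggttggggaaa
*Uqcr11* (GRCm38.p6, chr10:80406772-80407071, minus strand): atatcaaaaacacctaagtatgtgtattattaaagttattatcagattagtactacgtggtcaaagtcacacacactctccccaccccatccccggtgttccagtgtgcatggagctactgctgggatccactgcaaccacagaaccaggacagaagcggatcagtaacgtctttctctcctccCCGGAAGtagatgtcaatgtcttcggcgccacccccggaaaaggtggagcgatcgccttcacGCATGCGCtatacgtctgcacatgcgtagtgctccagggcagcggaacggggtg
*Cox8a* (GRCm38.p6, chr19:7217567-7217866, minus strand): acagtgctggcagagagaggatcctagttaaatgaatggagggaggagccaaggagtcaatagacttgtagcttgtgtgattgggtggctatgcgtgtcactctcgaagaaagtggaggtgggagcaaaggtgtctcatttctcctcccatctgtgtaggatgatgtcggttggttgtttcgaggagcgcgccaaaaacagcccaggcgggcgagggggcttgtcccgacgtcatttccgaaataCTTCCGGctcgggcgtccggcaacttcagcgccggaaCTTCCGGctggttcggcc
*Cox8b* (GRCm38.p6, chr7:140900397-140900696, minus strand): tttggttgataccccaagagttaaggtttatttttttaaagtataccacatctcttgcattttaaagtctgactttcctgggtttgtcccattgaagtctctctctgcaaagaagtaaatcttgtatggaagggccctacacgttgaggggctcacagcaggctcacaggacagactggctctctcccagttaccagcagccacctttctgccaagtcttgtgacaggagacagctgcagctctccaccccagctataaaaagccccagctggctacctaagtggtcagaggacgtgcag
*Ndufaf3* and *Cox8b* held none of the 3 motifs. *Uqcr11* held the NRF1 letters from position -4 and the ETS letters from position -66, and *Cox8a* held the reversed ETS letters from positions -5 and 33, counted from 1 at the annotated start with no 0. The CpG ratio was 0.888 in *Ndufaf3*, 0.795 in *Uqcr11*, 0.842 in *Cox8a* and 0.115 in *Cox8b*, which was the lowest of the 76 members. Next came *Cox7a1*, with at most 2 reads in any mouse, at 0.333. The tested *Cox7b* (0.368) and *Cox6b2* (0.432) followed, and *Cox7b2*, with no read in any mouse, was at 0.564. A relation of the ratio to expression was not tested.

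Few respiratory chain genes passed the threshold between the cohorts, as was the case for all tested genes. Of the 92 members, 80 had an RPKM over 0.5 in at least 1 mouse and were tested among 9522 protein-coding genes with limma on log2(RPKM + 0.5). Only *Ndufaf3*, which encodes an assembly factor of complex I, was higher at an adjusted p under 0.05 (1 of 80, 1.25%), beside 1.84% of all tested genes, and no member was lower (0 of 80) beside 3.52% of all tested genes. At an unadjusted p under 0.05, limma gave 9 members higher and 6 lower, beside 8.34% and 16% of all tested genes, and limma voom on the recovered reads gave no member at an adjusted p under 0.05 in either direction. The ranges of the cohorts did not overlap for 11 members that were higher in *Hoxa9*/*IRX3* (13.8%, beside 12.2% of all tested genes) and for 8 that were lower (10%, beside 21.6%).

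The median log2 fold change was -0.06 over the 80 tested members and -0.06 over all 9522 genes. Of the members, 36 were above 0 and 44 below, beside 4047 and 5475 of all tested genes. Median-of-ratios scaling and quantile normalization moved both medians to the other side of 0, to 0.01 and 0.02 for members and to 0.01 and 0.02 for all genes. The median size of the change, regardless of sign, was 0.21 in members and 0.24 in all genes, and 1 member (1.25%), *Cox6a2*, was past a 2-fold change compared with 6.82% of all genes. The 95% confidence interval lay within a 2-fold change in either direction for 66 of 80 members (82.5%) and for 73.6% of all genes. These intervals are on the scale of log2(RPKM + 0.5), which understates the fold of low genes, and do not bound the fold of the RPKM themselves. In bulk RNA, fewer cells of a type and less RNA per cell cannot be told apart. A list is described here by counts and medians only, and how far members differ from other genes was not tested.

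**Figure D1:**
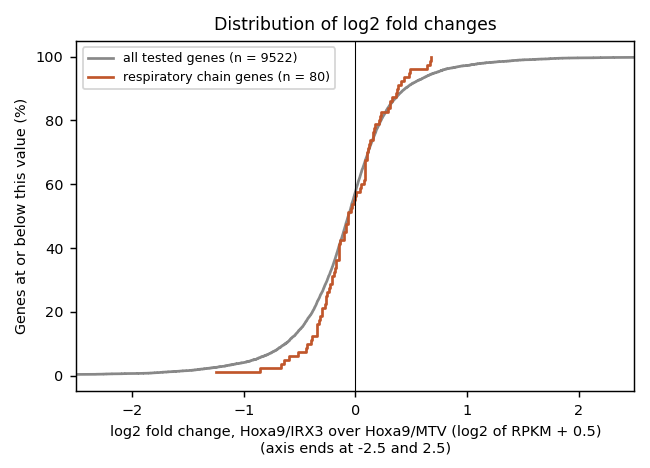
Cumulative distribution of the log2 fold change of *Hoxa9*/*IRX3* over *Hoxa9*/MTV (x axis, log2 of RPKM + 0.5, outermost genes not drawn) for 80 respiratory chain genes (orange) and all 9522 tested genes (gray), with the percentage of genes on the y axis. Both lines cross 0 above their middle, with medians of -0.06, and the members end at -1.24 and 0.68.

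By complex, the median log2 fold change of tested members was -0.23 for the 7 core subunits of complex I, -0.03 for 27 of its accessory subunits, -0.33 for 5 genes of its assembly, -0.01 for the 4 subunits of complex II, 0.09 for the 8 of complex III, -0.03 for 14 of complex IV and -0.15 for 15 of complex V. The *Hoxa9*/*IRX3* mice did not move together. For the core of complex I, the median distance from the mean of the *Hoxa9*/MTV mice was -0.42 in mouse 3.2, -0.03 in mouse 3.3 and -0.21 in mouse 3.5, and for its accessory subunits it was -0.07, 0.33 and -0.06. Mouse 3.3 stood above the other *Hoxa9*/*IRX3* mice in each of the 7 groups. Of the 80 tested members, mouse 3.3 had the highest value in 28 (35%), compared with 19.1% of all tested genes, and mice 3.2 and 3.5 had the lowest value in 24 (30%) and 23 (28.7%), compared with 16.9% and 33.3% of all tested genes.

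**Figure D2:**
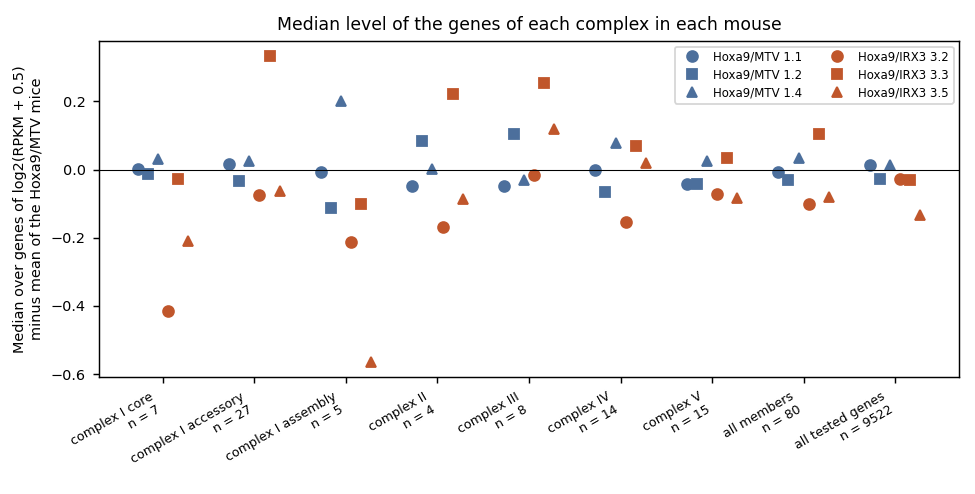
Median over the tested genes of each group of log2(RPKM + 0.5) minus the mean of the *Hoxa9*/MTV mice (y axis), for each of the 3 *Hoxa9*/MTV (blue) and 3 *Hoxa9*/*IRX3* mice (orange). Mouse 3.3 lies above 3.2 and 3.5 in each group of members, and for the core of complex I the 3 *Hoxa9*/*IRX3* mice run from -0.42 to -0.03.

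Spread between mice was larger in *Hoxa9*/*IRX3*. The median SD of log2(RPKM + 0.5) over members was 0.14 among the *Hoxa9*/MTV mice and 0.23 among the *Hoxa9*/*IRX3* mice, and over all tested genes it was 0.12 and 0.24. The SD was larger in *Hoxa9*/*IRX3* for 59 of 80 members (73.8%) and for 76.03% of all tested genes.

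**Figure D3:**
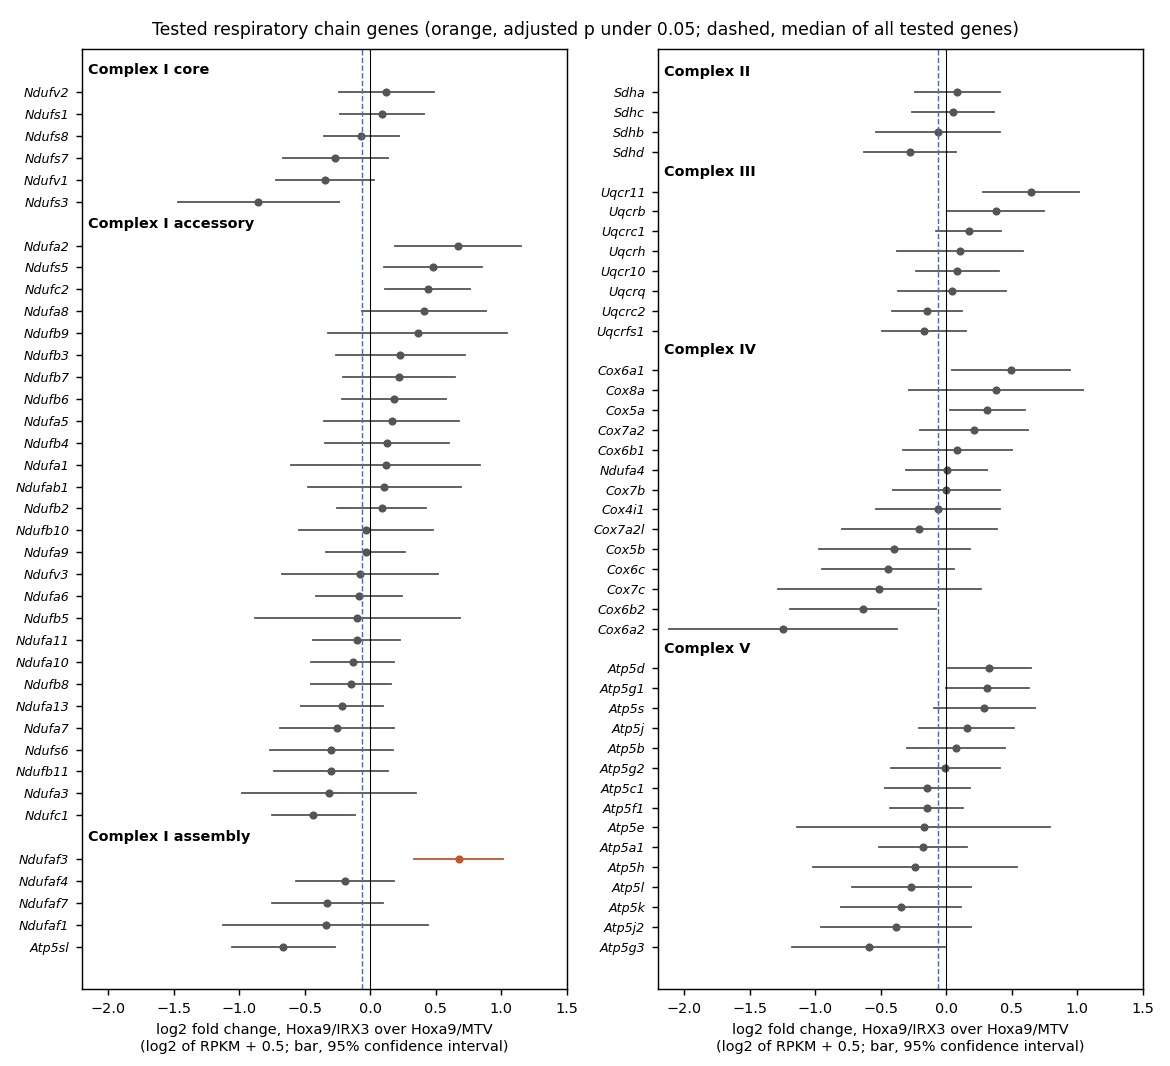
log2 fold change of *Hoxa9*/*IRX3* over *Hoxa9*/MTV (x axis, log2 of RPKM + 0.5) of 79 of the 80 tested members, grouped by complex, with the 95% confidence interval from limma as a bar. *Ndufaf3* (orange, 0.68) is the only one past an adjusted p of 0.05, and the dashed line marks the median of all tested genes at -0.06.

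The assembly of complex I held the only called member. *Ndufaf3* (GRCm38, chr9:108565537-108567434, minus strand) was at 7.12, 7.25 and 7.0 RPKM in mice 1.1, 1.2 and 1.4 and at 10.01, 13.5 and 11.8 RPKM in mice 3.2, 3.3 and 3.5. *Hoxa9*/MTV had a mean of 7.12 ± 0.128 RPKM and *Hoxa9*/*IRX3* one of 11.8 ± 1.73 RPKM (both SD, n = 3), which gave a log2 fold change of 0.68 ± 0.14 (SE) and a limma adjusted p of 0.048. Each *Hoxa9*/*IRX3* mouse was above each *Hoxa9*/MTV mouse, from 114 to 129 reads against 168 to 251. The call was close to the threshold: it held in 9 of 18 fits, counting the alternatives, over which the adjusted p ran from 0.027 to 0.19 and the log2 fold change from 0.58 to 0.78. It was lost without mouse 3.3 (adjusted p = 0.062), without mouse 3.5 (0.081) and without any single *Hoxa9*/MTV mouse (0.16 to 0.19). The gene overlaps *Impdh2*, at 3.14 to 8.13 RPKM in *Hoxa9*/MTV and 1.61 to 3.31 RPKM in *Hoxa9*/*IRX3*, and how reads on both were assigned is not given in the sources used here.

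*Atp5sl*, listed among the ATP synthase genes by its symbol, encodes a factor (DMAC2) for the assembly of the membrane arm of complex I. It was at 7.52, 8.22 and 7.78 RPKM in *Hoxa9*/MTV and at 5.35, 5.40 and 3.74 RPKM in *Hoxa9*/*IRX3*. The ranges did not overlap, and the log2 fold change of -0.66 ± 0.16 (SE) did not pass the test (limma adjusted p = 0.069, 0.063 to 0.22 over all fits). *Ndufaf1*, *Ndufaf4* and *Ndufaf7*, also assembly factors, had log2 fold changes of -0.34, -0.19 and -0.33, with overlapping ranges. *Ndufaf2*, *Ndufaf5* and *Ndufaf6* stayed under 0.5 RPKM in every mouse and were not tested. *Ndufaf5* had 79 to 107 reads in *Hoxa9*/MTV and 94, 113 and 22 reads in mice 3.2, 3.3 and 3.5.

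The core subunits of complex I carry its flavin and iron-sulfur centers and its quinone site. *Ndufs3*, a subunit of the arm that reaches into the matrix (chr2:90894634-90904827, minus strand), was at 2.496, 2.27 and 2.47 RPKM in *Hoxa9*/MTV and at 1.55, 1.43 and 0.553 RPKM in *Hoxa9*/*IRX3*. *Hoxa9*/MTV had a mean of 2.41 ± 0.126 RPKM and *Hoxa9*/*IRX3* one of 1.18 ± 0.544 RPKM (both SD, n = 3), with mouse 3.5 lowest at 45 reads. The log2 fold change was -0.85 ± 0.26 (SE, limma adjusted p = 0.11), and without mouse 3.5 it was -0.55 with an adjusted p of 0.049. The gene overlaps *Kbtbd4*, and a pseudogene matched 75.7% of its transcript at 95% identity or more, which leaves its reads uncertain. The other core genes described here did not pass the test, and their ranges overlapped. *Ndufv1*, for the flavin-binding subunit, had a log2 fold change of -0.34 (95% CI -0.72 to 0.03) and *Ndufs7* -0.27 (-0.67 to 0.13). *Ndufs8* was at -0.07 (-0.36 to 0.22), *Ndufs1*, for the largest subunit, at 0.09 (-0.23 to 0.41) and *Ndufv2* at 0.12 (-0.24 to 0.48). For these 5 genes, the interval lay within a 2-fold change on this scale.

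Of the 29 accessory subunit genes, 27 were tested and none was called. Their log2 fold changes were above 0 in 13 and below in 14, beside 4047 and 5475 of all tested genes. *Ndufc2*, for a subunit of the membrane arm (chr7:97400003-97407802), was at 4.68, 5.33 and 5.08 RPKM in *Hoxa9*/MTV and 7.74, 7.26 and 6.04 RPKM in *Hoxa9*/*IRX3*. All *Hoxa9*/*IRX3* mice were higher, and the log2 fold change of 0.44 ± 0.13 (SE) had a limma adjusted p of 0.11. Its partner in the membrane arm *Ndufc1* was at 0.892, 0.866 and 0.935 RPKM against 0.497, 0.686 and 0.436 RPKM, lower in every *Hoxa9*/*IRX3* mouse, with a log2 fold change of -0.43 ± 0.13 (SE, limma adjusted p = 0.11) from 15 to 39 reads.

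*Ndufa2*, for a small subunit with a thioredoxin-like fold, was at 3.00, 4.38 and 2.60 RPKM against 5.02, 5.09 and 6.42 RPKM. The log2 fold change was 0.67 ± 0.20 (SE, limma adjusted p = 0.11), and the gene overlaps *Tmco6*. *Ndufs5* was at 0.247, 0.241 and 0.263 RPKM against 0.699, 0.576 and 0.388 RPKM, from 11 to 14 reads against 17 to 34, with a log2 fold change of 0.48 ± 0.16 (SE, limma adjusted p = 0.13). It passed the filter only through *Hoxa9*/*IRX3* mice, in which it was high, its RPKM means differed 2.21-fold, and a pseudogene matched 60.8% of its transcript. *Ndufb9*, for a subunit with an LYR motif, was at 6.49, 5.77 and 5.64 RPKM against 4.79, 11.01 and 8.89 RPKM, so that mouse 3.2 lay below and the other *Hoxa9*/*IRX3* mice above the *Hoxa9*/MTV range. *Ndufb11* (log2 fold change -0.30) and *Ndufa13* (-0.21), the latter also known as GRIM-19, had the most negative values among genes that averaged 5 RPKM or more, with overlapping ranges. The other 20 tested accessory genes ran from -0.32 (*Ndufa3*) to 0.41 (*Ndufa8*), also with overlap. *Ndufs4*, which was under the filter because its span is long, had 122 to 152 reads against 175 to 266, and *Ndufa12* 46 to 70 reads against 56 to 103.

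Complex II is the only complex without a subunit from mitochondrial DNA and also works in the tricarboxylic acid cycle. *Sdha*, its catalytic flavoprotein, was at 5.42, 5.62 and 4.39 RPKM in *Hoxa9*/MTV and 5.12, 5.93 and 5.36 RPKM in *Hoxa9*/*IRX3*, a log2 fold change of 0.08 (95% CI -0.24 to 0.41) on at least 1191 reads in every mouse. *Sdhb*, its iron-sulfur subunit, had -0.06 (-0.54 to 0.41), and *Sdhc*, a membrane anchor, 0.05 (-0.26 to 0.36). *Sdhd*, the other anchor, was at 24.2, 31.8 and 28.0 RPKM against 23.6, 22.4 and 22.8 RPKM, which did not overlap, with a log2 fold change of -0.28 (-0.63 to 0.07, limma adjusted p = 0.30). All 4 intervals lay within a 2-fold change on this scale. Scaled to exon length, *Sdhd* had the highest value of the members in *Hoxa9*/MTV, at a mean of 170 ± 23.0 RPKM (SD, n = 3). *Atp5a1* followed at 138 ± 9.71 and *Atp5b* at 127 ± 10.8, which differed from each other by about their spread. This order depends on the length, summed over all annotated exons: 1231 bases for *Sdhd*, 3135 for *Atp5a1* and 4237 for *Atp5b*. A protein-coding transcript of each has 1231, 2471 and 1916 bases, so their relative abundance stays uncertain.

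In complex III, 6 of 8 genes had a log2 fold change above 0, beside 4047 of all 9522 tested genes, and none was called. *Uqcr11*, for the smallest subunit (chr10:80402997-80406830, minus strand), was at 0.560, 0.377 and 0.512 RPKM in *Hoxa9*/MTV and 1.30, 0.984 and 0.850 RPKM in *Hoxa9*/*IRX3*. This rested on 12 to 19 reads against 26 to 44, and each *Hoxa9*/*IRX3* mouse was higher. The log2 fold change was 0.64 ± 0.15 (SE, limma adjusted p = 0.064), and it passed the threshold with median-of-ratios scaling (adjusted p = 0.041) and quantile normalization (0.037), within a range of 0.037 to 0.21 over all fits. Pseudogenes matched 38.4% of its transcript. *Uqcrb* was at 2.35, 2.45 and 2.08 RPKM against 2.46, 3.599 and 3.42 RPKM (log2 fold change 0.38, limma adjusted p = 0.20), with pseudogenes matching 62.8% of its transcript and an overlap with *Gm10767*. *Uqcrc1*, for a core protein, was at 4.46, 4.63 and 4.42 RPKM against 4.97, 5.18 and 5.27 RPKM, a small shift of 0.17 (95% CI -0.08 to 0.42) with no overlap. *Uqcrfs1*, for the Rieske iron-sulfur protein, had -0.17 (-0.49 to 0.15) and *Uqcrq* 0.04 (-0.37 to 0.45). *Uqcr10* (0.09), *Uqcrh* (0.10) and *Uqcrc2* (-0.15) had overlapping ranges.

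**Figure D4:**
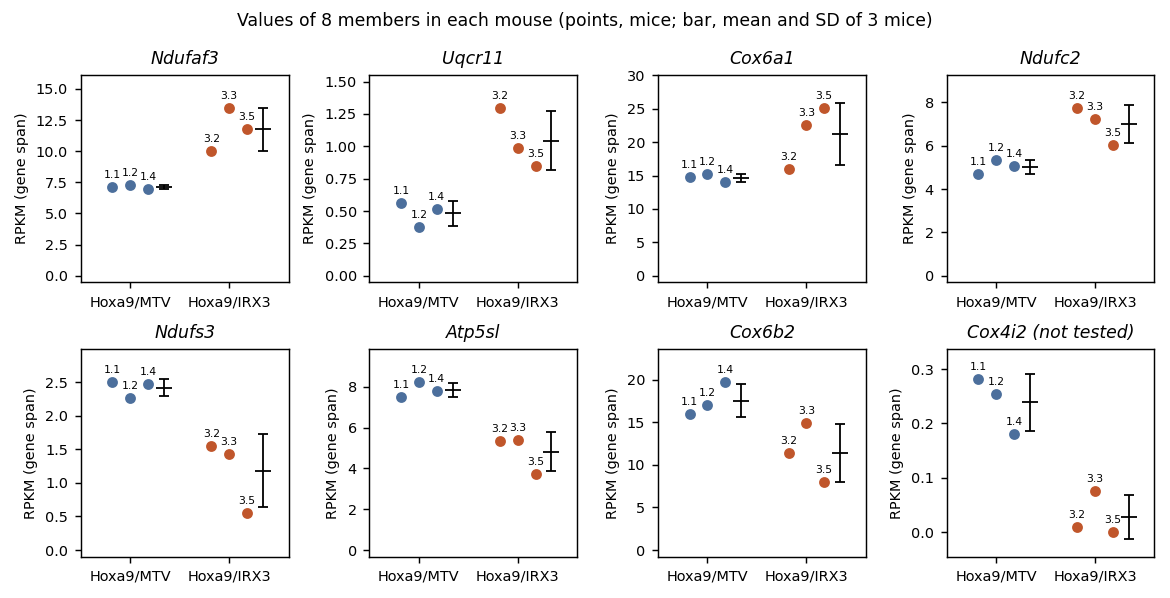
RPKM over the gene span (y axis) of 8 members in each mouse (points with mouse numbers), with the mean and SD of the 3 mice of each cohort. In each panel the 3 *Hoxa9*/*IRX3* mice (orange) lie all above or all below the 3 *Hoxa9*/MTV mice (blue), of which the *Ndufaf3* difference alone passed the test and *Cox4i2* was not tested.

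No gene of complex IV was called among 14 tested, and the widest differences within it were in genes for tissue-specific forms of its subunits. COX4 regulates the enzyme's response to ATP, and its second form, *Cox4i2* (chr2:152754173-152765037), is known from lung. *Cox4i2* was at 0.281, 0.255 and 0.181 RPKM in *Hoxa9*/MTV and at 0.0104, 0.0751 and 0 RPKM in *Hoxa9*/*IRX3*, from 27, 23 and 19 reads and from 1, 8 and 0 reads. The ranges did not overlap (two-sided p = 0.1 by exact permutation, and no lower p can be had from 3 mice against 3). It was under the filter on low values. With exon length in place of the gene span, its log2 fold change was -2.24 (limma adjusted p = 0.036), and without a filter on low values it was -0.48 (0.045). *Cox4i1*, the broad form, was at 9.63, 12.2 and 11.5 RPKM against 8.05, 12.3 and 11.8 RPKM, with a log2 fold change of -0.07 (95% CI -0.54 to 0.41). Scaled to exon length, *Cox4i2* made up 9.43%, 6.92% and 5.33% of the 2 forms in mice 1.1, 1.2 and 1.4 and 0.459%, 2.13% and 0% in mice 3.2, 3.3 and 3.5. The size of these shares depends on the length used. All annotated exons sum to 1550 bases for *Cox4i1* and 788 for *Cox4i2*, while a protein-coding transcript of each has 745 and 727.

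*Cox6a2*, the form of heart and skeletal muscle, had 3, 3 and 15 reads in *Hoxa9*/MTV and 0 in each *Hoxa9*/*IRX3* mouse. Against a floor of 3 reads in each library this was at least 2.26-fold lower, and the higher mean came from mouse 1.4. It passed the filter only through this mouse, had a limma adjusted p of 0.10 with a fitted value that depends on the pseudocount, and lies within *Itgad*. Its broad form *Cox6a1* was at 14.7, 15.2 and 14.0 RPKM against 16.02, 22.5 and 25.1 RPKM, higher in each *Hoxa9*/*IRX3* mouse. The log2 fold change was 0.49 ± 0.19 (SE, limma adjusted p = 0.17), and without mouse 3.2 it was 0.68 (adjusted p = 0.040).

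*Cox6b2*, known as a testis form of a subunit that joins the monomers of the complex IV dimer, was the more abundant form of COX6B in *Hoxa9*/MTV. It was at 15.97, 17.0 and 19.7 RPKM against 11.3, 14.9 and 7.98 RPKM. The log2 fold change was -0.64 ± 0.23 (SE, limma adjusted p = 0.16), with no overlap and mouse 3.5 lowest. *Cox6b1* had a log2 fold change of 0.08 (95% CI -0.33 to 0.50). Scaled to exon length, *Cox6b2* made up 63.8%, 58.3% and 58.5% of the 2 forms in *Hoxa9*/MTV and 51.1%, 47.2% and 42.1% in *Hoxa9*/*IRX3*, ranges that did not overlap. The size of the shares again depends on the length. Annotated exons sum to 1108 bases for *Cox6b2* and 708 for *Cox6b1*, while a protein-coding transcript of each has 553 and 618.

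**Figure D5:**
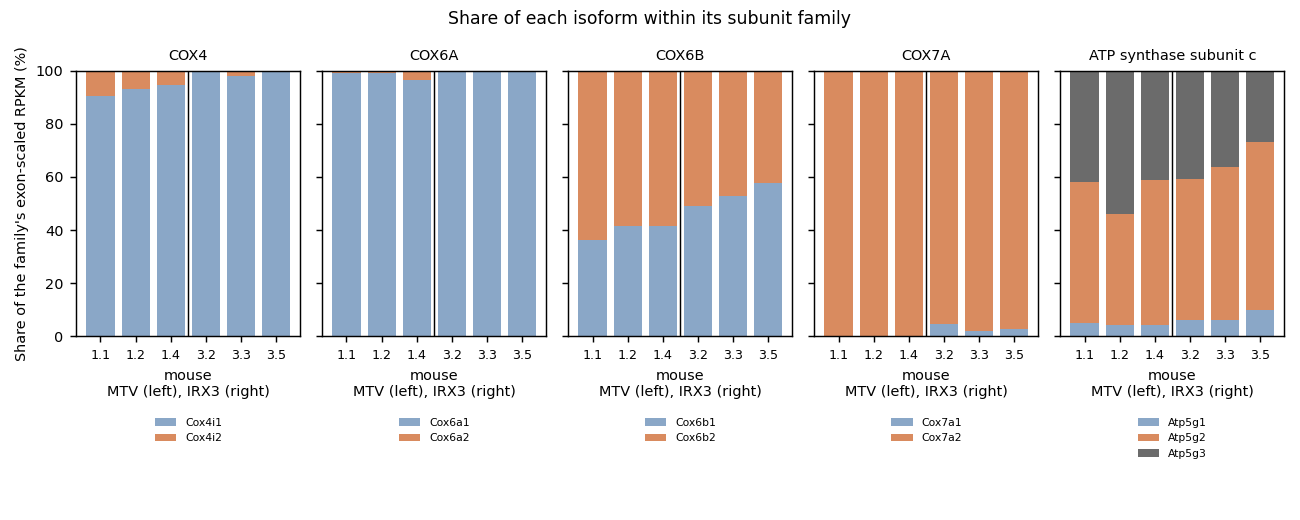
Share of each gene in the exon-scaled RPKM of its subunit family (y axis, percent) in each mouse, with *Hoxa9*/MTV left and *Hoxa9*/*IRX3* right of the line in each panel. The share of *Cox4i2* runs from 5.33% to 9.43% on the left and from 0% to 2.13% on the right, and that of *Cox6b2* from 58.3% to 63.8% and from 42.1% to 51.1%. The size of a share depends on the exon length used.

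Other tissue-restricted forms were silent or nearly so. *Cox8b*, of muscle and brown fat, *Cox8c* and *Cox7b2*, both of testis, had no read in any mouse, which allows up to 3 reads per library, while *Cox8a* was at 26.3, 31.7 and 30.02 RPKM against 25.1, 52.3 and 42.5 RPKM and *Cox7b* had a log2 fold change of 0.00 (95% CI -0.41 to 0.41). The muscle form *Cox7a1* had 0 reads in *Hoxa9*/MTV and 2, 1 and 1 reads in *Hoxa9*/*IRX3*, at or under the floor in both. *Ndufa4l2*, a hypoxia-induced relative of *Ndufa4*, had 5 reads in mouse 3.2 and 0 elsewhere, and overlaps *Shmt2*. *Cox7a2* (log2 fold change 0.21) and *Ndufa4* (0.00), the broad forms, had overlapping ranges. Of the remaining complex IV genes, *Cox5a*, for a subunit on the matrix side, was at 1.75, 1.70 and 1.77 RPKM against 1.98, 2.66 and 2.26 RPKM (log2 fold change 0.31, limma adjusted p = 0.18). *Cox7c* was at 7.04, 5.82 and 7.97 RPKM against 6.37, 6.10 and 2.58 RPKM, with only mouse 3.5 outside the *Hoxa9*/MTV range. *Cox5b* (-0.40), *Cox6c* (-0.44) and *Cox7a2l* (-0.21) had overlapping ranges.

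For complex V, the catalytic head showed no called gene. *Atp5a1* and *Atp5b*, for the alpha and beta subunits, rested on 3051 to 6421 reads and had log2 fold changes of -0.18 (95% CI -0.52 to 0.16) and 0.08 (-0.30 to 0.45). *Atp5d*, for the delta subunit, was at 11.8, 13.1 and 11.2 RPKM against 13.9, 16.3 and 15.5 RPKM, each *Hoxa9*/*IRX3* mouse above the *Hoxa9*/MTV range, with a log2 fold change of 0.33 ± 0.13 (SE, limma adjusted p = 0.19). *Atp5j*, for coupling factor 6 of the stalk, had 0.16 (-0.21 to 0.52). It shares its start region with *Gabpa*, on the opposite strand. The other 8 tested genes outside subunit c had log2 fold changes from -0.38 (*Atp5j2*) to 0.29 (*Atp5s*) with no call, and *Atp5o*, for the stalk, had 9 to 16 reads in every mouse and was not tested. The span of *Atp5o* overlaps a further annotated gene of the same symbol, and how reads on both were assigned was not given, so that its values are uncertain. *Atp5k* was lower in each *Hoxa9*/*IRX3* mouse on 1 to 6 reads (log2 fold change -0.35, limma adjusted p = 0.31).

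Subunit c, which forms the rotating ring, is encoded by 3 nuclear genes for 1 mature protein. *Atp5g3* was at 9.23, 10.7 and 10.6 RPKM against 8.82, 7.19 and 4.40 RPKM, lower in each *Hoxa9*/*IRX3* mouse, with a log2 fold change of -0.59 ± 0.24 (SE, limma adjusted p = 0.20). *Atp5g1* was at 1.06, 0.795 and 1.02 RPKM against 1.26, 1.15 and 1.53 RPKM, higher in each, with 0.31 ± 0.13 (SE, limma adjusted p = 0.21). *Atp5g2* was at 2.73, 1.94 and 3.29 RPKM against 2.65, 2.68 and 2.43 RPKM, with overlap and a log2 fold change of -0.01. The whole *Atp5g2* transcript matched pseudogenes, so its values are uncertain. Matches also covered 54.04% of the transcript of *Cox7c*, 56.6% of *Atp5k* and 77.8% of *Atp5h*. Of all 92 members, 25 had a pseudogene match, and the median log2 fold change was -0.15 in the 23 of these that were tested and -0.06 in the 57 without a match. In 27 members, the span also overlaps another protein-coding gene.

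No gene in the lists of related factors was called. Of 44 listed assembly factors and electron carriers that are not members, among them cytochrome c and the enzymes of ubiquinone synthesis, 39 were tested. By limma 0 were called, beside 1.84% of all tested genes called higher and 3.52% called lower. At an unadjusted p under 0.05, limma gave 5 higher and 2 lower, beside 8.34% and 16% of all tested genes. The median log2 fold change of the 39 was -0.00. *Cyc1*, for cytochrome c1, had 0.10 (95% CI -0.28 to 0.48) and *Cycs*, for cytochrome c, -0.40 (-0.83 to 0.04). Of 15 genes that regulate mitochondrial biogenesis, 12 were tested and 0 called, with 1 higher and 0 lower at an unadjusted p under 0.05. These counts stand beside the same shares of all tested genes. The factors whose letters were searched in the promoters were near 0, with log2 fold changes of -0.04 for *Nrf1*, 0.01 for *Gabpa* and -0.08 for *Yy1*. *Esrra* had 0.04, *Tfam*, which packages mitochondrial DNA, -0.11, and *Pprc1* -0.02.

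The widest difference of this list was in *Ppargc1a*, for the coactivator PGC-1α, which is known to raise the expression of respiratory chain genes. It had 18, 7 and 2 reads in *Hoxa9*/MTV and 118, 352 and 489 reads in *Hoxa9*/*IRX3*, or 0.0179, 0.00743 and 0.00182 RPKM against 0.117, 0.316 and 0.540 RPKM. Every *Hoxa9*/*IRX3* mouse was above every *Hoxa9*/MTV mouse (two-sided p = 0.1 by exact permutation, again the lowest that can be had). With values near or under the pseudocount of 0.5, the fitted log2 fold change was 0.66 ± 0.22 (SE, limma adjusted p = 0.14), compared with 3.03 (adjusted p = 0.020) with exon length and 5.31 (0.12) with voom on the recovered reads. It passed the filter only through mouse 3.5, in which it was highest. *Ppargc1b*, for PGC-1β, had 83, 111 and 116 reads against 30, 255 and 43 reads and was not tested.

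Of the 13 subunits from mitochondrial DNA, 8 were tested and 0 called by limma, with 2 higher and 1 lower at an unadjusted p under 0.05. Of all tested genes, 8.34% were higher and 16% lower at that unadjusted p. *mt-Cytb*, the cytochrome b of complex III, was at 3974, 4033 and 4619 RPKM against 6211, 6670 and 5624 RPKM, with a log2 fold change of 0.55 ± 0.12 (SE, limma adjusted p = 0.056). *mt-Nd4* of complex I was at 1330, 1214 and 1544 RPKM against 1926, 2639 and 2063 RPKM, with 0.69 ± 0.17 (SE, limma adjusted p = 0.069). *mt-Nd6*, the only one encoded on the light strand, was at 132, 134 and 115 RPKM against 53.9, 85.9 and 50.5 RPKM, with -1.04 ± 0.23 (SE, limma adjusted p = 0.053), and it passed the threshold with exon length (adjusted p = 0.042), no variance trend (0.049), sample quality weights (0.047) and without mouse 3.3 (0.014). *mt-Cytb* passed it with median-of-ratios scaling (adjusted p = 0.036) and a pseudocount of 1 (0.044). For *mt-Nd6*, whether reads were counted by strand is not given in the sources used here. For these 3, the cohorts did not overlap. *mt-Co2*, *mt-Co3*, *mt-Atp6*, *mt-Atp8* and *mt-Nd4l* were listed at 0 in every mouse, while *mt-Co1* was at 5025 to 8741 RPKM. These values of 0 are not read as absent expression, and their cause was not tested. *mt-Nd3*, with 0 to 3 reads per mouse, was kept among the 8 tested. The median of the 8 was 0.38, beside -0.06 for the nuclear members.

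Limma called 0 of the 8 genes of the cell cycle list. At an unadjusted p under 0.05, limma gave 1 higher and 1 lower, beside 8.34% and 16% of all tested genes. The 8 genes summed to 123 to 138 RPKM in *Hoxa9*/MTV and 121 to 183 RPKM in *Hoxa9*/*IRX3*. *Mki67* was the largest part, at 41.4 to 49.8 RPKM and 42.7 to 76.1 RPKM, highest in mouse 3.3. The higher gene was *Mcm2* (log2 fold change 0.35) and the lower *Cdk1* (-0.57), so the genes did not move together. An adjusted p over the threshold with 3 mice against 3 does not show equal expression, and the intervals hold for log2(RPKM + 0.5) only.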

How the data were processed

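Strand-specific polyA libraries of 6 mice were sequenced by the authors as paired ends of 75 bases. The authors aligned them to GRCm38 with Bowtie2 2.2.1, which does not split reads over junctions, filtered alignments with SAMtools 0.1.19, counted reads on Ensembl genes and deposited RPKM per gene span. No column of values was left unused.

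The read number used to scale each library was recovered from the steps between low RPKM. With it, the reads of 58 of 92 members came out whole within 0.01 in all mice. GENCODE M21 gave gene type and position. Protein-coding genes with RPKM over 0.5 in at least 1 mouse (9522) were fitted with limma 3.58.1 in R 4.3.3 (lmFit, eBayes with trend) on log2(RPKM + 0.5), with Benjamini-Hochberg adjustment over all of them. The fit was tested on simulated data. Where a cohort held only 0 reads, a floor of 3 reads per library was used. Intervals of fold changes cover 95%. Exon-scaled RPKM divide by the summed exon length. Transcripts were compared with pseudogenes by blastn 2.17.0 (95% identity over 75 bases). Python 3.11.15, pandas 2.3.3 and scipy 1.17.1 were used.

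Members, gene lists and markers were chosen with earlier results of these data known. Named were called members, the largest changes of each group with a mean of at least 5 RPKM, core subunits, isoform families and fixed regulators. *Uqcr11*, *Uqcrb*, *Ndufa2*, *Ndufc1*, *Ndufs5*, *Ndufs4*, *Ndufa12*, *Cox5a*, *Yy1*, the mitochondrial genes and other members outside this rule were named after their values were seen. The result of 1 member, which stays in all counts and medians, is not reported here. The mice of a cohort are separate animals, and the mouse numbers give no pairs. The alternatives are given with the sensitivity of the results.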

Additional observations from a re-analysis of the deposited data

How the results depend on the processing

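Of the alternatives set out for these results, 12 kinds were run (17 fits), among them leaving out each mouse. The call of *Ndufaf3* (log2 fold change 0.58 to 0.78) rested on the setting. A pseudocount of 1, a mean RPKM over 1, no variance trend and sample quality weights each gave 1 member higher and 0 lower, as reported. With all gene types, 0 members were called higher and 0 lower, and 204 of all genes were lower. With exon length, 0 members were higher and 1 lower (*Cox4i2*), and 299 of all genes were higher. With no filter on low values, 0 were higher and 1 lower (*Cox4i2*). A pseudocount of 0.1 gave 1 higher and 1 lower (*Cox6a2*), and voom on the recovered reads gave 0 higher. Median-of-ratios scaling and quantile normalization each gave 2 higher (*Ndufaf3* and *Uqcr11*) and moved the median of complex V from -0.15 to -0.0861 and -0.0583.

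Leaving out 1 mouse at a time gave 0 to 2 members higher, 0 to 1 lower, 24 to 261 of all genes higher and 37 to 497 lower. The lowest counts came without a *Hoxa9*/MTV mouse (28 and 46 without 1.1, 25 and 41 without 1.2, 24 and 37 without 1.4). Medians then ran from -0.10 to 0.00664 for all members, from -0.35 to -0.0991 for the core, -0.0979 to 0.12 for the accessory subunits and -0.40 to -0.21 for the assembly of complex I, and from -0.14 to 0.0900 for complex II, 0.0264 to 0.16 for III, -0.13 to 0.0171 for IV and -0.18 to -0.0585 for V. The accessory median (-0.0301) was also above 0 with exon length (0.11), a mean RPKM over 1 (0.0974), no filter on low values (0.0884), median-of-ratios scaling (0.0572), quantile normalization (0.0658) and sample quality weights (0.0145).

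Members with a change near 0 reversed. *Atp5g2* went to 0.0669 and 0.0795, *Cox4i1* to 0.0203 and 0.0207 and *Ndufs8* to 0.0162 and 0.0135 under median-of-ratios scaling and quantile normalization, the latter also taking *Sdhb* to 0.00852. *Cox7b* went to -0.00232 with exon length and -0.00222 with a pseudocount of 0.1, and *Ndufa4* to -0.0415 with sample quality weights and -0.00836 with voom. Without single mice, *Atp5g2* ran from -0.18 to 0.14, *Cox4i1* from -0.17 to 0.12, *Cox6b1* from -0.0599 to 0.18, *Cox7b* from -0.15 to 0.16, *Ndufa4* from -0.0848 to 0.069, *Sdha* from -0.0146 to 0.15, *Sdhb* from -0.24 to 0.0615, *Uqcrq* from -0.0988 to 0.12 and *Atp5b* from -0.0305 to 0.15. Of the mitochondrial genes, *mt-Nd6* and *mt-Cytb* passed the threshold under some alternatives. None of the members named here as reversed did, and the cause of each shift was not tested. No paired analysis was possible because the mouse numbers of the cohorts have none in common. Genes with few reads, such as *Uqcr11*, *Ndufs5* and *Cox6a2*, are limited by depth.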
